A study of Homo sapiens with 6 samples.

Results

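The protocadherins are the largest branch of the cadherin family of adhesion proteins. They were taken here as the rows of a gene count table whose symbol starts with PCDH, without pseudogenes and antisense genes. The rule found 49 genes of 27452 rows. It left out 4 pseudogenes. The GENCODE 29 annotation holds 66 protein-coding genes of this kind, so some protocadherins had no row and are not covered here. Of the 49 genes, 41 lie in the alpha, beta and gamma clusters on chromosome 5 (6 alpha, 14 beta and 21 gamma genes) and 8 are non-clustered. Total RNA was sequenced from 6 samples of cells labelled HepG2, a cell line from a human liver tumour, all grown in DMEM with serum: 3 from cells built to carry an shRNA against STAT3 and 3 from cells built to carry a control shRNA. An shRNA is a short hairpin RNA that the cell turns into an interfering RNA against the messenger it matches, and STAT3 is a transcription factor activated by cytokine receptors. Each group's libraries are numbered 1 to 3, with no word on whether they are separate cultures, clones or hairpins, so the p-values rest on a spread that may be technical. Any other difference between the STAT3 shRNA and control shRNA lines cannot be told apart from the knockdown.

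A protocadherin spans the membrane once and carries cadherin repeats outside the cell, through which it binds the same protein on another cell. In the alpha and gamma clusters each gene has its own large first exon, which holds the whole outer part and is spliced to constant exons that all genes of that cluster share. Beta genes have no constant exons. In neurons, where the clusters are best known, each cell switches on its own choice of cluster promoters with the help of CTCF and cohesin, and the choice lets a neuron tell its own branches from those of others. Non-clustered genes such as PCDH9 and PCDH10 are single genes with their own promoters and are also studied for their loss in tumours.

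Promoter stretches are shown for beta genes with different outcomes in these libraries, since nearly all beta genes carry the same short element close to their start. In the RefSeq promoter table (GRCh38.p14), the 9 letters GGTGGCGCT, chosen after reading these promoters and searched on both strands, occurred within 250 bases before the start in 11 of 13 beta genes that have an entry. The exceptions were PCDHB1 and PCDHB8. The element occurred in 0.41% of all 35116 promoter windows of the table and in none of the alpha, gamma or non-clustered members with an entry. Its last 4 letters, CGCT, are the core of the conserved element of clustered protocadherin promoters, and by themselves they occurred in 64.8% of all windows. In the stretches below, from the plus strand of chromosome 5, capitals mark GGTGGCGCT with 20 bases on each side.
PCDHB2 (chr5:141094535-141094583): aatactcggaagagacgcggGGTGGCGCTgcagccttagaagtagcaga
PCDHB9 (chr5:141187065-141187113): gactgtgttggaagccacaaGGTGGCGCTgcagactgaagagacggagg
PCDHB13 (chr5:141213856-141213904): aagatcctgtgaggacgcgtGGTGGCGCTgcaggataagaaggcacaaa
PCDHB14 (chr5:141223254-141223302): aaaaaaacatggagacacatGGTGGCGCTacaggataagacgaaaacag
PCDHB15 (chr5:141245305-141245353): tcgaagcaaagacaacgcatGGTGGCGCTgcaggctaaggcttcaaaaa
PCDHB4 (chr5:141121714-141121762): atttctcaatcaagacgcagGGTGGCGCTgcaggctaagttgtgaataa
The 3 beta genes called higher below (PCDHB2, PCDHB9 and PCDHB13), the 2 tested and not called (PCDHB14 and PCDHB15) and PCDHB4, which had no count in any library, all carry the element. A match is a description of letters and not a measured binding site.

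Most gamma genes carried a different stretch around the same core. The 6 letters CGCTGT were found in 10 of 11 gamma A, 5 of 7 gamma B and both gamma C genes with an entry, and also in 3 of 6 alpha genes. They were found in 1 of 13 beta genes, 1 of 7 non-clustered genes and 8.83% of all promoter windows, again on both strands. For both elements a gene was counted if any of its windows matched, while the share over the whole table is per window. How the 6 letters were chosen is not given, so these shares are a description and were not tested. The examples are the gamma genes whose counts were high enough to test, with CGCTGT in capitals.
PCDHGA6 (chr5:141373831-141373876): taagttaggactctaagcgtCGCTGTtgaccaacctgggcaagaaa
PCDHGA10 (chr5:141412927-141412972): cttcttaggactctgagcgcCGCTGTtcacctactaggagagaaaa
PCDHGB1 (chr5:141350021-141350066): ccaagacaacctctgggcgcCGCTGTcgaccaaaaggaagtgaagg
PCDHGC3 (chr5:141475876-141475921): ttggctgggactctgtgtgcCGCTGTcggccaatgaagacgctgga

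The STAT3 shRNA libraries held 17694642 to 25862027 counts and the control libraries 17408543 to 20133064. STAT3 itself had 34.8, 35.8 and 36.2 CPM with the STAT3 shRNA and 261.5, 246.7 and 246.3 CPM with the control shRNA, where CPM is the count scaled to a common library size. Of 16 hepatocyte markers, 8 had a row, and 5 of these, among them albumin (ALB), APOA1 and APOA2, had at most 3 counts in any library, so defining transcripts of the labelled cell type were at or near 0. The marker list summed to 6.05 to 8.94 CPM in STAT3 shRNA libraries and 2.28 to 4.06 CPM in control libraries. The transcription factor HNF4A, its 1 called member, averaged 6.58 CPM in STAT3 shRNA libraries and 1.51 CPM in control libraries. The only other member tested, TF, was not called and had the lower mean with the STAT3 shRNA. It averaged 0.806 CPM in STAT3 shRNA libraries and 1.59 CPM in control libraries. Of 10 neuronal markers, 6 had a row and 3 were tested. That list summed to 12.2 to 13.4 CPM in STAT3 shRNA libraries and 12.1 to 14.3 CPM in control libraries. Its 1 called member was the synaptic gene SNAP25, with 1.79 CPM in STAT3 shRNA libraries and 0.776 CPM in control libraries on average. The other tested members were not called. TUBB3, the largest part of the sum, averaged 9.53 CPM in STAT3 shRNA libraries and 11.3 CPM in control libraries. MAP2 averaged 0.982 CPM in STAT3 shRNA libraries and 0.801 CPM in control libraries. Fibroblast markers, 6 with a row and 3 tested, summed to 36.1 to 37.95 CPM in STAT3 shRNA libraries and 53.3 to 61.3 CPM in control libraries. That sum followed COL1A1, which was called lower at 15.3 CPM in STAT3 shRNA libraries and 40.3 CPM in control libraries on average. DCN (14.6 CPM in STAT3 shRNA libraries and 11.9 CPM in control libraries) and PDGFRB (6.06 CPM in STAT3 shRNA libraries and 4.82 CPM in control libraries) were not called and had the higher mean with the STAT3 shRNA, as did the untested LUM and THY1. The untested COL3A1 had the lower mean, with 1, 0 and 0 counts in STAT3 shRNA libraries and 2, 1 and 8 in control libraries. Endothelial markers (4 of 6 with a row, 1 tested) stayed at or under 1.75 CPM in STAT3 shRNA libraries and 1.82 CPM in control libraries, and leukocyte markers (2 of 6 with a row, 0 tested) stayed at or under 0.451 CPM in STAT3 shRNA libraries and 0.641 CPM in control libraries. The part of other cell types in the protocadherin results was not tested, and in bulk RNA more cells of a type cannot be told apart from more RNA per cell.

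With the STAT3 shRNA some genes of the beta cluster and the non-clustered PCDH9 were higher, and no protocadherin was called lower. In all, 13 of 49 members had enough counts to be tested (5 beta, 4 gamma and 4 non-clustered), and 4 of them were higher: PCDHB2, PCDHB9, PCDHB13 and PCDH9. None was lower by edgeR or DESeq2, also at an unadjusted p under 0.05 in edgeR. The higher calls are 30.8% of the 13, where 9.39% of all 14999 genes tested were called higher (edgeR quasi-likelihood test, false discovery rate 0.05) and 17.5% were called in either direction. Of all calls 53.6% were higher, or 68.7% on library totals. By class, 3 of 5 tested beta genes, 0 of 4 gamma genes and 1 of 4 non-clustered genes were higher. The median log2 fold change of the tested genes was 0.84 in the beta, -0.15 in the gamma and 0.15 in the non-clustered class, beside -0.0067 over all tested genes. The 3 STAT3 shRNA libraries lay fully above the 3 control libraries in 5 of the 13 and fully below in 2, against 18.5% and 17.2% of all tested genes, or 35.7% in either direction. Only 7 of the 13 reached the filter's cutoff of 0.513 CPM in all 6 libraries, and PCDHB9 reached it in the STAT3 shRNA libraries alone, so the counts over tested genes describe these genes and not the family. The 4 genes called higher became 2 (PCDHB2 and PCDH9) without STAT3 shRNA library 3 or without control library 2, and without STAT3 shRNA library 1 or 2 they were 3.

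**Figure D1:**
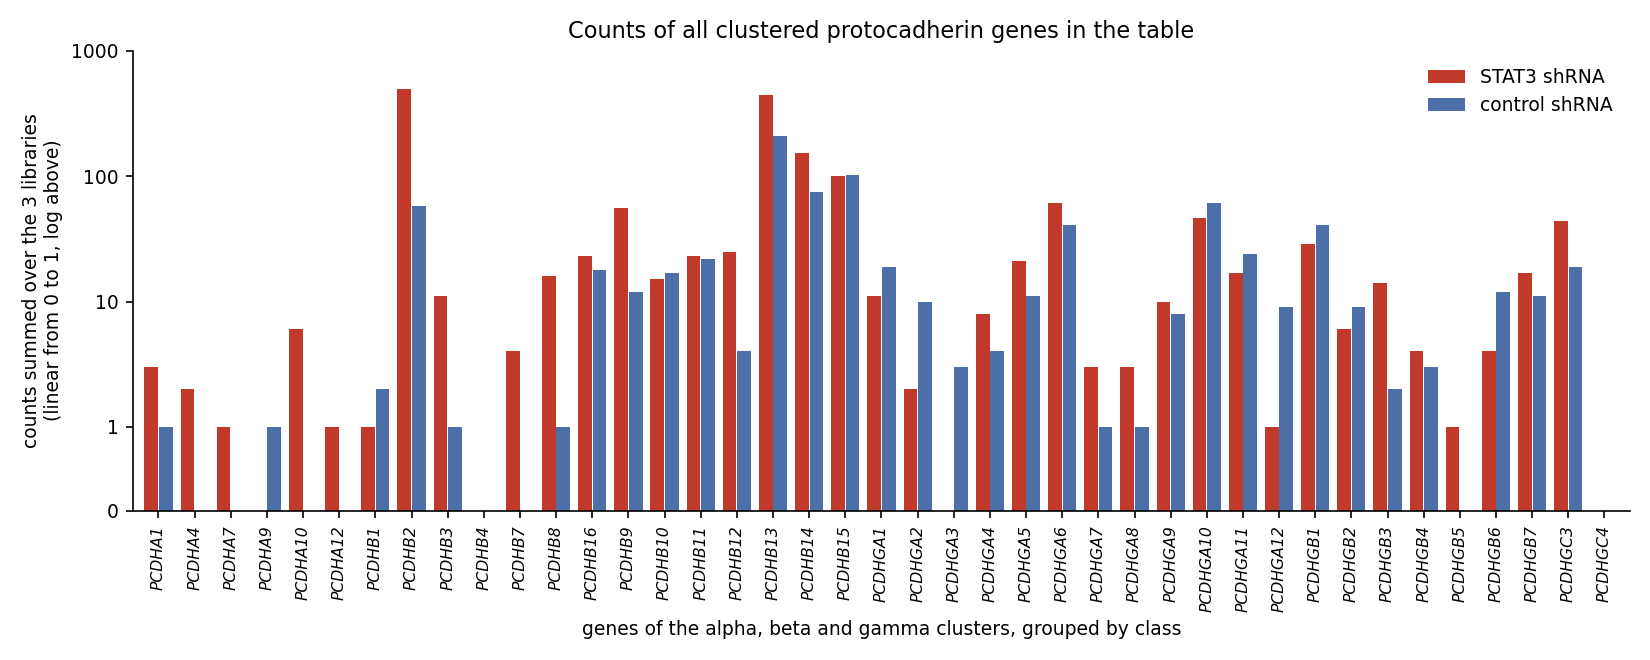
Counts of the 41 clustered genes, summed over the 3 STAT3 shRNA libraries (red) and the 3 control libraries (blue), with the genes on the horizontal axis grouped by class in their order along the chromosome; the vertical axis is linear from 0 to 1 and logarithmic above. PCDHB2 (499) and PCDHB13 (447) hold the highest sums in STAT3 shRNA libraries, PCDHB13 (208) and PCDHB15 (102) in control libraries, the alpha genes at the left hold at most 6 per group, and depth differs between the groups.

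Among the tested beta genes, PCDHB2 (ENSG00000112852.6) had the largest fold change. It lay at 7.18, 7.86 and 8.07 CPM in STAT3 shRNA libraries (191, 160 and 148 counts) and at 1.17, 1.07 and 0.949 CPM in control libraries (20, 20 and 18 counts). Every STAT3 shRNA library was thus far above every control library. The log2 fold change was 2.85 ± 0.191 (SE), or 7.23-fold (edgeR adjusted p = 2.40e-05), which ranked it at place 104 from the top among the 14999 tested genes. The call held in all 13 alternative fits, with log2 fold changes of 2.78 to 2.95. Of its 50-base words 20.3% occur in other protocadherins and 10.2% in PCDHB3, which had 4, 0 and 7 counts in STAT3 shRNA libraries and 1, 0 and 0 in control libraries. An overlapping gene, AC244517.5, had 4, 0 and 0 counts in STAT3 shRNA libraries and none in control libraries.

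PCDHB13 (ENSG00000187372.11) had the most control counts of the beta genes. It lay at 7.74, 5.40 and 7.14 CPM in STAT3 shRNA libraries and at 3.27, 3.68 and 4.38 CPM in control libraries. The groups did not overlap, although STAT3 shRNA library 2 came within about 1 CPM of control library 3. The log2 fold change was 0.84 ± 0.200 (edgeR adjusted p = 0.0194). The call was lost without STAT3 shRNA library 1 (0.73, edgeR adjusted p = 0.102) or 3 (0.80, 0.0831) and without control library 2 (0.82, 0.0796), while the direction held in all 13 alternative fits. PCDHB13 has a close copy in PCDHB8: 17.7% of the 50-base words of its longest annotated transcript also occur in PCDHB8, and 33% of those of PCDHB8 occur in PCDHB13, so how reads divide between this pair is uncertain.

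PCDHB9 (ENSG00000177839.6) was a low gene. It had 18, 21 and 17 counts in STAT3 shRNA libraries (0.676, 1.03 and 0.927 CPM) and 3, 3 and 6 counts in control libraries (0.175, 0.16 and 0.316 CPM). Each STAT3 shRNA library was above each control library. The log2 fold change was 1.97 ± 0.462 (edgeR adjusted p = 0.0182), and it held its call in 9 of 13 alternative fits. It was not called by the DESeq2 Wald test (adjusted p = 0.0557), without STAT3 shRNA library 2 (edgeR adjusted p = 0.0628) or 3 (0.0772), or without control library 2 (0.0877). With its neighbour PCDHB10 it shares 17.2% of its 50-base words, and PCDHB10 had 4, 5 and 6 counts in STAT3 shRNA libraries and 6, 5 and 6 in control libraries.

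The other tested beta genes did not pass. PCDHB14 lay at 2.07, 2.99 and 2.07 CPM in STAT3 shRNA libraries and 1.46, 1.23 and 1.42 CPM in control libraries, without overlap. Its log2 fold change was 0.79 ± 0.270 (edgeR adjusted p = 0.0765), and it was called only with library totals as the scale (0.89, edgeR adjusted p = 0.0494). PCDHB15 lay at 1.47, 1.23 and 1.96 CPM in STAT3 shRNA libraries and 1.40, 2.19 and 1.95 CPM in control libraries, which overlap (log2 fold change -0.26 ± 0.302, edgeR adjusted p = 0.600). The differences between beta genes were not tested.

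**Figure D2:**
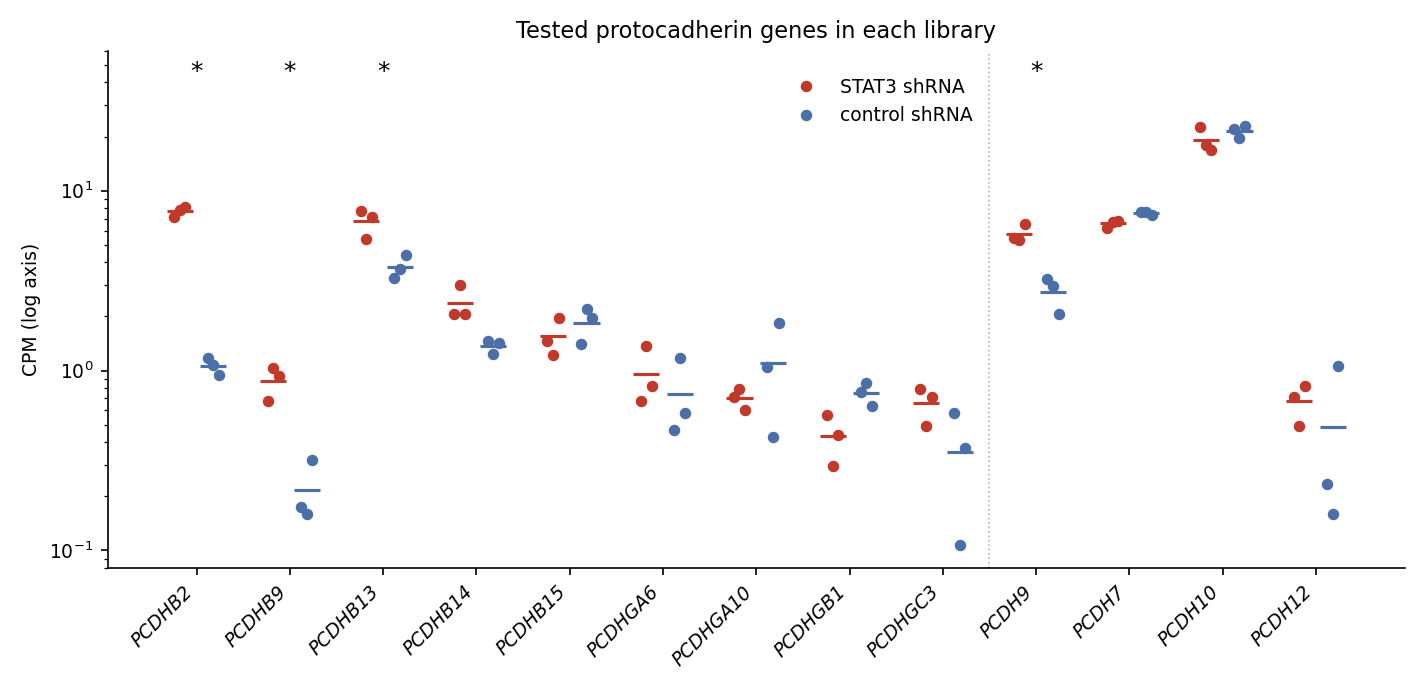
CPM on a logarithmic axis in each of the 3 STAT3 shRNA libraries (red, left) and 3 control libraries (blue, right) for the 13 tested protocadherin genes, clustered genes left of the dotted line; bars are group means and stars mark genes called higher. PCDHB2, at 7.18 to 8.07 CPM in STAT3 shRNA libraries and 0.949 to 1.17 CPM in control libraries, shows the widest gap.

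The remaining 9 beta genes did not pass the filter and had at most 15 counts in any library. PCDHB8 had 5, 9 and 2 counts in STAT3 shRNA libraries and 0, 1 and 0 in control libraries. PCDHB12 had 15, 5 and 5 in STAT3 shRNA libraries and 3, 1 and 0 in control libraries. Both sets of libraries stood apart on the CPM scale, but at this depth neither gene was called when edgeR was run without the filter (adjusted p = 0.123 for PCDHB8 and 0.165 for PCDHB12). PCDHB7 had 0, 2 and 2 in STAT3 shRNA libraries and none in control libraries. PCDHB16 had 8, 8 and 7 counts in STAT3 shRNA libraries and 9, 5 and 4 in control libraries. PCDHB11 had 12, 4 and 7 in STAT3 shRNA libraries and 8, 12 and 2 in control libraries. PCDHB1 had at most 2 counts in a library. PCDHB4 had 0 in all 6, which still allows up to 0.113 CPM in the deepest library and 0.175 CPM in the shallowest (3 counts, counting error only).

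Summed over its 14 genes with a row, the beta cluster held 20.9, 20.2 and 22.1 CPM in STAT3 shRNA libraries and 9.04, 9.72 and 9.65 CPM in control libraries. The means were 21.1 ± 0.99 and 9.47 ± 0.37 CPM (SD, n = 3 per group), a ratio of 2.23. Its make-up differed too. PCDHB2 gave 36.3% of the beta counts in STAT3 shRNA libraries and 11.2% in control libraries, PCDHB13 gave 32.5% and 40.0%, and PCDHB15 gave 7.28% and 19.6%. Shares of one sum depend on each other, so a larger PCDHB2 share lowers the rest. In CPM, PCDHB13 averaged 6.76 in STAT3 shRNA libraries and 3.775 in control libraries. PCDHB15, not called, averaged 1.55 CPM in STAT3 shRNA libraries and 1.85 CPM in control libraries. Without PCDHB2 the beta sum was 13.4 ± 0.93 CPM in STAT3 shRNA libraries and 8.41 ± 0.46 CPM in control libraries, with all 3 STAT3 shRNA libraries above all control libraries. That remainder still holds PCDHB13 and PCDHB9, which were called higher, so it does not describe the uncalled beta genes. These sums are given without a test.

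**Figure D3:**
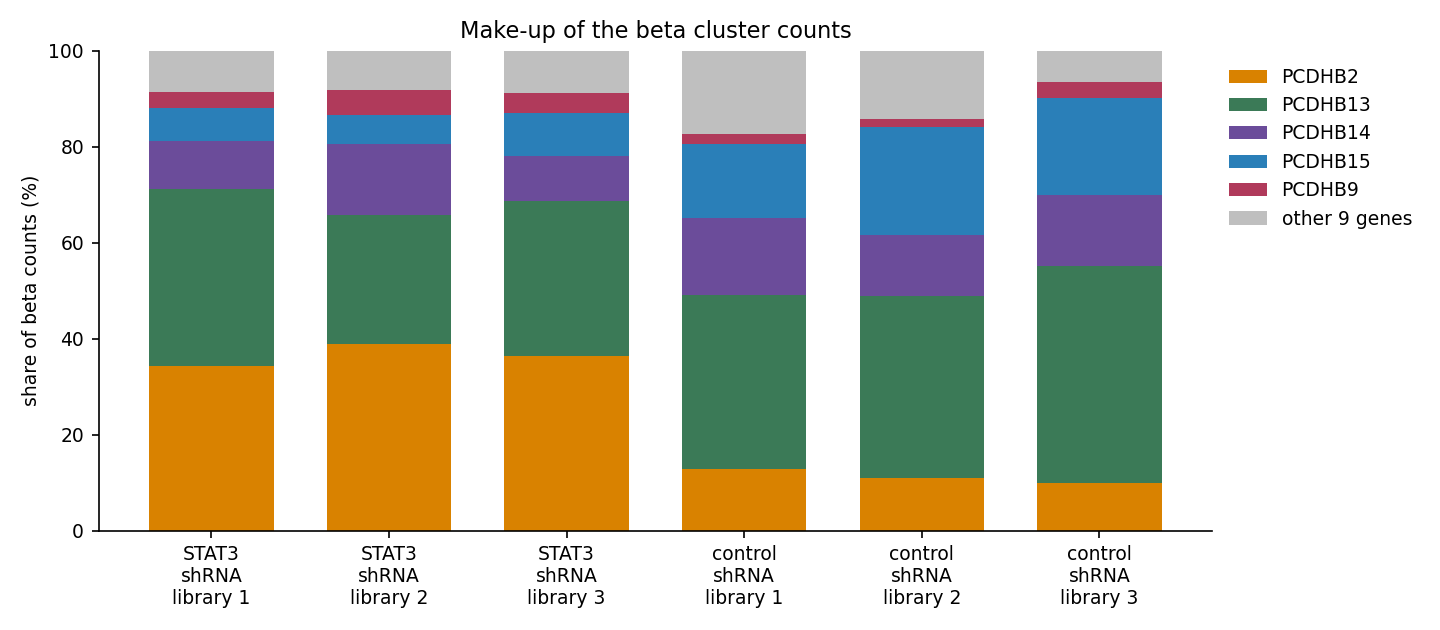
Share in percent of all beta cluster counts taken by each of 5 beta genes and by the other 9 together, one bar for each STAT3 shRNA library (left) and control library (right). The PCDHB2 share is 34.3% to 38.9% in STAT3 shRNA libraries and 9.84% to 12.9% in control libraries.

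The gamma cluster, which lies after the beta cluster on the chromosome, gave no call. None of its 4 tested genes passed in edgeR or DESeq2, and 0 of them reached an unadjusted p under 0.05 in edgeR. Of its 21 genes with a row, 17 did not reach the filter, with at most 10 counts in a library. PCDHGB1 came nearest to a call: it lay at 0.564, 0.295 and 0.436 CPM in STAT3 shRNA libraries and 0.758, 0.854 and 0.633 CPM in control libraries, below in every library (log2 fold change -0.77 ± 0.410, edgeR adjusted p = 0.239). PCDHGC3, of the C-type gamma genes that many cells use, lay at 0.789, 0.491 and 0.709 CPM in STAT3 shRNA libraries and 0.583, 0.107 and 0.369 CPM in control libraries, with overlap (0.92 ± 0.556, edgeR adjusted p = 0.295). PCDHGA10 ranged from 0.600 to 0.786 CPM in STAT3 shRNA libraries, inside its control range of 0.427 to 1.85 CPM (-0.66 ± 0.50, edgeR adjusted p = 0.410). Its fold change rested on single control libraries: it was -0.06 without control library 3 and -1.05 without control library 2. PCDHGA6 had 0.676 to 1.38 CPM in STAT3 shRNA libraries and 0.467 to 1.17 CPM in control libraries (0.35 ± 0.464, edgeR adjusted p = 0.644), and its fold change was -0.00061 without STAT3 shRNA library 2. The standard errors of these 4 genes, 0.41 to 0.556, are over 2 times that of PCDHB13 (0.200), so a change of the size of PCDHB13 would be hard to detect here.

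Among the gamma genes below the filter, the counts went both ways. PCDHGA12 had 0, 1 and 0 counts in STAT3 shRNA libraries and 2, 2 and 5 in control libraries, and PCDHGA2 had 0, 2 and 0 in STAT3 shRNA libraries and 3, 5 and 2 in control libraries. PCDHGB3 had 3, 8 and 3 counts in STAT3 shRNA libraries and 0, 2 and 0 in control libraries. Run without the filter, edgeR called none of the 3 (adjusted p of 0.276, 0.380 and 0.294 in this order). PCDHGC4 had no count in any library. The gamma genes summed to 4.322, 4.861 and 4.798 CPM in STAT3 shRNA libraries and 5.25, 5.125 and 5.43 CPM in control libraries. The means were 4.66 ± 0.29 and 5.27 ± 0.15 CPM (SD, n = 3 per group), a ratio of 0.885, or 0.946 on library totals. All 3 STAT3 shRNA libraries lay below all 3 control libraries in these CPM, but not on library totals. There STAT3 shRNA library 2 (99 of 19719848 counts) lay above control library 2 (96 of 19283150 counts). The sum is given without a test.

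Gamma genes overlap each other in the annotation. The constant exons belong to all of them, and each of the 21 gamma genes shares at least 2181 bases of annotated exon with other genes. In all, 27.6% to 64.4% of the exon length of a gamma gene is shared in GENCODE 29. Sharing goes further in PCDHGA8 and PCDHGB4, with 4447 bases each, and in PCDHGB1, with 2735 bases. Of beta genes at most 24.9% is shared, in the same annotation. How the submitters' counting treated reads on shared exons is not given in the sources used here, so gamma and beta levels cannot be set against each other closely, and the part of shared exons in the gamma result was not tested.

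Alpha genes were close to absent. The 6 genes with a row (PCDHA1, PCDHA4, PCDHA7, PCDHA9, PCDHA10 and PCDHA12) together had 9, 0 and 4 counts in STAT3 shRNA libraries and 1, 0 and 1 in control libraries, and none reached the filter. The highest single value was 5 counts, of PCDHA10 in STAT3 shRNA library 1. The groups overlap at 0, so no difference was detectable at this depth.

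**Figure D4:**
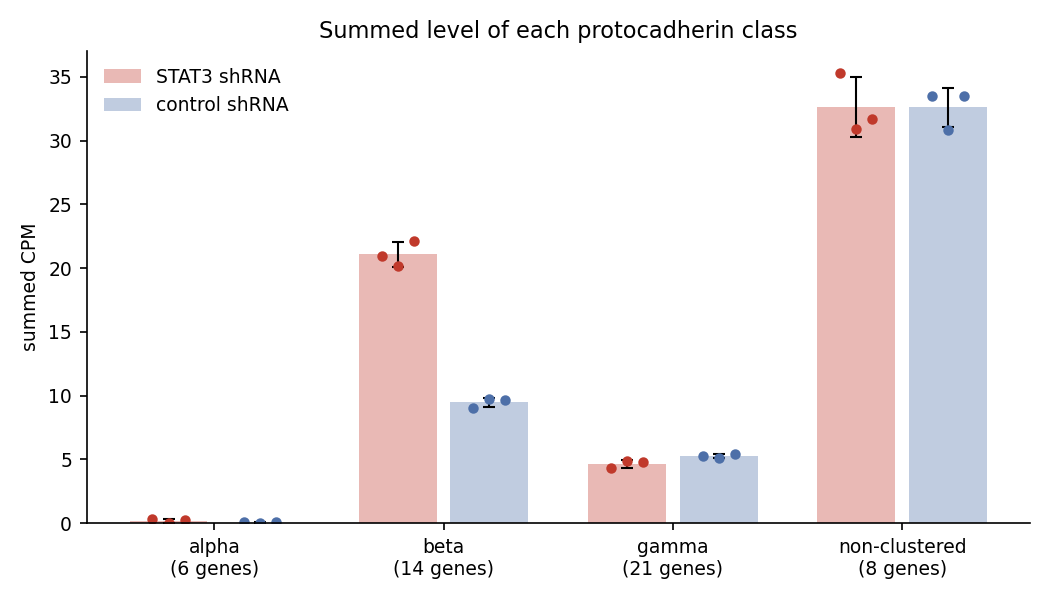
Summed CPM of the 6 alpha, 14 beta, 21 gamma and 8 non-clustered genes; bars are means of 3 libraries with SD and points are libraries, STAT3 shRNA in red on the left and control in blue on the right of each pair. The beta sum is 21.1 CPM in STAT3 shRNA libraries and 9.47 CPM in control libraries, and the non-clustered sums overlap. The gamma sums lie below control in all 3 STAT3 shRNA libraries (4.66 and 5.27 CPM on average), but overlap on library totals.

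Of the non-clustered genes, PCDH9 was higher and the most abundant, PCDH10 and PCDH7, were not called. PCDH9 (ENSG00000184226.15), a neuronal adhesion gene on chromosome 13, lay at 5.45, 5.30 and 6.49 CPM in STAT3 shRNA libraries and 3.21, 2.94 and 2.06 CPM in control libraries. The groups did not overlap, and control library 3 was the lowest. Its log2 fold change was 1.07 ± 0.215, or 2.10-fold (edgeR adjusted p = 0.00865), and it was called in all 13 alternative fits with 0.91 to 1.21. No 50-base word of its longest transcript occurs in another member, and 0.465% of its exon length overlaps another gene.

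PCDH10, on chromosome 4, is described as a gene silenced by DNA methylation in several tumours, and its inner part binds the WAVE complex that builds branched actin. It was the member with the most counts, at 22.5, 17.9 and 16.9 CPM in STAT3 shRNA libraries and 22.0, 19.6 and 22.8 CPM in control libraries, which overlap (-0.17 ± 0.135, edgeR adjusted p = 0.431). PCDH7, also on chromosome 4, lay at 6.20, 6.73 and 6.82 CPM in STAT3 shRNA libraries and 7.64, 7.58 and 7.33 CPM in control libraries. All 3 STAT3 shRNA libraries were lower by a small margin that did not pass the test (-0.19 ± 0.136, edgeR adjusted p = 0.371). On library totals the log2 fold change of PCDH7 was -0.096 and the groups overlapped. For both genes the standard error is small enough that a change of the size of PCDH9 would lie far outside it.

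PCDH12, known from endothelial cells, lay at 0.714, 0.491 and 0.818 CPM in STAT3 shRNA libraries and 0.233, 0.16 and 1.05 CPM in control libraries. Control library 3 alone stood above all others (0.46 ± 0.648, edgeR adjusted p = 0.666), and without it the log2 fold change was 1.76, still not called. PCDH1, an epithelial protocadherin, had 6, 3 and 5 counts in STAT3 shRNA libraries and 3, 5 and 4 in control libraries. PCDH15, which links the hair bundle of inner ear cells, had 0 counts in STAT3 shRNA libraries and 0, 3 and 0 in control libraries. The near-identical X and Y copies PCDH11X and PCDH11Y did not reach the filter, and 57.3% of the 50-base words of PCDH11X occur in PCDH11Y. The 8 non-clustered genes summed to 35.3, 30.9 and 31.7 CPM in STAT3 shRNA libraries and 33.5, 30.9 and 33.5 CPM in control libraries, with means of 32.6 ± 2.3 and 32.6 ± 1.5 CPM (SD, n = 3 per group). PCDH10 makes up most of that sum.

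**Figure D5:**
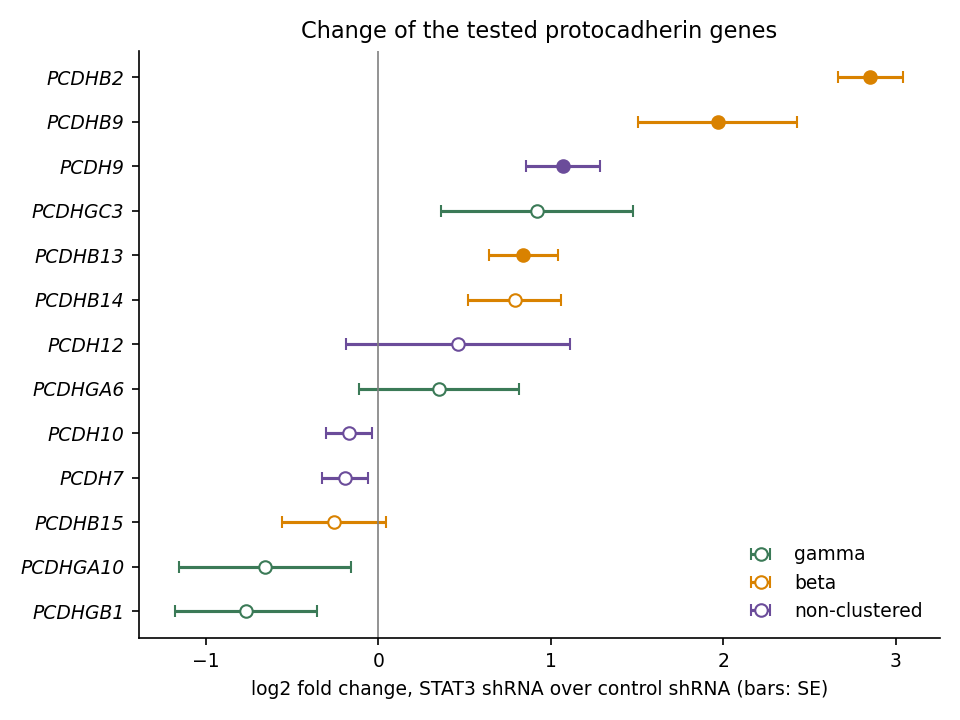
Log2 fold change of STAT3 shRNA over control shRNA for the 13 tested protocadherin genes with its SE, orange for beta, green for gamma and purple for non-clustered genes; filled points were called. PCDHB2 lies at 2.85 and PCDHB9 at 1.97, while PCDHGB1 lies lowest at -0.77 and was not called.

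Levels of different genes were compared per length, as CPM per kilobase of exon that no other annotated gene shares. In STAT3 shRNA libraries PCDHB2 had the highest mean on this measure, 2.20 ± 0.13, followed by PCDH10 with 1.88 ± 0.29 and PCDHB13 with 1.34 ± 0.24 (SD, n = 3). PCDHB2 and PCDH10 overlapped across these libraries, and PCDH10 and PCDHB13 did not. PCDH7 (0.537 ± 0.027), PCDHB14 (0.510 ± 0.11) and PCDHB15 (0.430 ± 0.10) followed and overlapped each other. In control libraries PCDH10 led with 2.115 ± 0.16, ahead of PCDHB13 (0.746 ± 0.11), PCDH7 (0.614 ± 0.014), PCDHB15 (0.512 ± 0.11), PCDHB2 (0.303 ± 0.031) and PCDHB14 (0.294 ± 0.027). PCDH10 lay above all of these in every control library, and so did PCDHB13 above those after it, while PCDH7 overlapped PCDHB15 and PCDHB2 overlapped PCDHB14. Gamma genes were left out of this order, since reads on their shared exons may or may not be in their counts. The same question touches some beta genes kept in it, on a smaller scale. PCDHB2 shares 620 of its 4126 annotated exon bases and PCDHB14 shares 169 of 4828, while PCDH10 shares none. If reads on shared bases were counted, the measure is raised more for PCDHB2 than for PCDHB14 or PCDH10. The place of PCDHB2 above PCDH10 in STAT3 shRNA libraries and above PCDHB14 in control libraries may therefore come from the choice of bases. By length PCDH9 was a low gene, at 0.187 ± 0.021 in STAT3 shRNA libraries and 0.0887 ± 0.020 in control libraries, since its own exons span 30.8 kilobases.

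Among genes around the clusters on chromosome 5, the calls were lower. Of 26 neighbours listed, 21 were tested, none was higher and 3 were lower: the ankyrin repeat gene ANKHD1 (-0.41 ± 0.0867), the RNA coactivator SRA1 (-0.51 ± 0.137) and the sugar transporter family gene SLC35A4 (-0.32 ± 0.0801), with edgeR adjusted p of 0.0116, 0.0313 and 0.0227. Over all genes tested 8.13% were called lower. On library totals 1 neighbour was higher and 1 lower. The list's median log2 fold change was -0.13, against -0.0067 over all tested genes. TAF7, a general transcription factor subunit that lies between the beta and gamma genes, had 92.6 ± 5.1 CPM in STAT3 shRNA libraries and 105 ± 4.0 CPM in control libraries (-0.18 ± 0.0849, edgeR adjusted p = 0.181). All 3 lower calls were lost without STAT3 shRNA library 1 or 3 or without control library 2.

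The genes known to regulate cluster promoters were read against all tested genes, of which 9.39% were called higher and 8.13% lower. Among 11 CTCF and cohesin genes, all tested, 1 was lower and none higher: the cohesin subunit RAD21, with 386 ± 34 CPM in STAT3 shRNA libraries and 540 ± 84 CPM in control libraries (-0.48 ± 0.123, edgeR adjusted p = 0.0257). That call was lost on library totals, without any one STAT3 shRNA library, and without control library 2. The list's median was 0.13, and without control library 1 it had 3 higher members. Among 11 DNA methylation and chromatin repressors, 1 was higher, the zinc finger protein WIZ (0.32 ± 0.0939, edgeR adjusted p = 0.0473), a call that held in 5 of 13 alternative fits. The median was 0.01.

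Protocadherins are cut at the membrane by ADAM10 and then by gamma-secretase, which frees the inner part. Of 8 genes of this list, 3 were higher and none lower, with a median of 0.16, where 9.39% of all tested genes were called higher. ADAM10 had 93.6 ± 6.1 CPM in STAT3 shRNA libraries and 65.4 ± 12 CPM in control libraries (0.52 ± 0.131, edgeR adjusted p = 0.0250). The related protease ADAM17 (0.45 ± 0.117) and the gamma-secretase subunit APH1B (0.50 ± 0.128) were also higher, with edgeR adjusted p of 0.0281 and 0.0270. All 3 calls were lost without STAT3 shRNA library 1 or 3 or without control library 2, and 1 of the 3 remained without STAT3 shRNA library 2.

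The kinases that bind the inner parts of clustered protocadherins include 2 genes with calls in every fit. Of 10 kinases and partners, 8 were tested, 2 were lower and none higher (median -0.12), where 8.13% of all tested genes were called lower. PTK2B, also called PYK2, which the alpha and gamma constant parts bind and inhibit, had 5.83 ± 0.56 CPM in STAT3 shRNA libraries and 17.6 ± 1.3 CPM in control libraries (-1.60 ± 0.133, edgeR adjusted p = 8.12e-05). FYN, a Src family kinase, had 6.44 ± 0.29 CPM in STAT3 shRNA libraries and 11.5 ± 1.1 CPM in control libraries (-0.84 ± 0.135, edgeR adjusted p = 0.00269). Both calls held in all 13 alternative fits. With library totals or upper-quartile factors as the scale 2 members were higher.

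Of the WAVE complex, 8 of 11 listed genes were tested, 1 was higher and 2 lower (median -0.02), where 17.5% of all tested genes were called in either direction. CYFIP2 had 1.10 ± 0.38 CPM in STAT3 shRNA libraries and 0.147 ± 0.036 CPM in control libraries (2.85 ± 0.506, edgeR adjusted p = 0.00464), called in all 13 alternative fits. Its control counts were 3, 2 and 3, so it passed the filter on low counts only through the STAT3 shRNA libraries. Its much more abundant paralog CYFIP1 had 167 ± 4.4 CPM in STAT3 shRNA libraries and 168 ± 9.6 CPM in control libraries and was not called. The scaffold NCKAP1 (-0.58 ± 0.121, edgeR adjusted p = 0.0105) and ABI2 (-0.46 ± 0.117, edgeR adjusted p = 0.0252) were lower, calls lost without STAT3 shRNA library 1. The ABI2 call was also lost without STAT3 shRNA library 2 or 3, without control library 2 and on library totals. Among other long cadherins, 8 of 19 listed were tested and only the giant cadherin FAT1 was called, lower at 25.3 ± 1.8 CPM in STAT3 shRNA libraries against 37.5 ± 8.2 CPM in control libraries (-0.56 ± 0.157, edgeR adjusted p = 0.0381). It held in 6 of 13 alternative fits, and the list's median was -0.12. Of all tested genes 8.13% were called lower.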

How the data were processed

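The deposited table holds raw counts per gene for 6 libraries, whole numbers with a different total in each. The sources used here do not give the authors' aligner, counting program, strand setting, genome build or annotation, so reads of overlapping antisense genes and near-identical copies cannot be told apart. Groups came from the titles. Counts were tested in R 4.3.3 with edgeR 4.0.16: filterByExpr (minimum count 10, minimum total 15), TMM factors, the robust quasi-likelihood test with group only, two-sided, Benjamini-Hochberg over 14999 genes at 0.05. The SE is the log2 fold change divided by the square root of F. DESeq2 1.42.0 was an alternative, beside other scalings, no filter, non-robust dispersion, a replicate block and leaving out each library. The procedure was tested on simulated data. Exon lengths and gene order came from GENCODE 29 and promoters from RefSeq (46 of 49 members matched). Libraries of a group differed by 4.20 to 43.0 per degree of freedom in a chi-square test over genes, far above sampling noise. The rule for named genes took all tested protocadherins, the other protocadherins by their counts, STAT3 and, of each related list, the called members, at most 4 by smallest FDR. The untested protocadherins named one by one, the single cell type markers, TAF7, CYFIP1 and AC244517.5 were picked after their values were seen. Members and lists were chosen with earlier results of these data known.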

Additional observations from a re-analysis of the deposited data

How the results depend on the processing

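Over the 13 alternative fits, 160 of the values for the 13 tested protocadherins kept their direction and their side of the threshold, 7 lost a call, 1 gained one and 1 turned round. The 7 losses were of PCDHB9 and PCDHB13, the gain was PCDHB14 on library totals (0.89), and PCDHGA6 ranged from -0.00061 (without STAT3 shRNA library 2) to 0.85 (without control library 2). Leaving out each library gave 2 to 4 members higher, and over all genes 796 to 2068 higher and 666 to 2030 lower, against 1408 and 1219. On library totals, which move the median of all genes by 0.097 on the log2 scale, the beta ratio was 2.38 and the gamma ratio 0.946. In the related lists, counts of 0 to 3 moved to between 0 and 6, the highest being 6 lower neighbours without control library 1 (5 by DESeq2). With the library number as a replicate block, 4 members were higher, as without it, and 1210 genes were higher and 1068 lower. WIZ, APH1B, SRA1 and SLC35A4 were not called under the block, which left 1 lower neighbour. Whether the numbers pair the libraries is not stated in the labels. Deviations of same-numbered libraries correlated at 0.386, 0.235 and -0.322, and not every library correlated best with its own number. Deviations from a mean of 3 libraries depend on each other, so these values cannot decide it. Depth is one limit: 36 of 49 members did not reach the filter, and for them low expression and low depth cannot be told apart.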
